A study of Mus musculus with 24 samples.

Results

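Ventral prostate organoids of the genotype named Tmprss2-ERG, called T-ERG here, were kept as 2 clones, and the RNA of clone 2 was compared with that of clone 1. Each clone was sequenced as 5 Matrigel domes, so the comparison uses 10 of the 20 RNA libraries of the study. Genes with an FPKM (fragments mapped to a gene, scaled to the length of its transcripts and to the fragments of the library) of at least 1 in at least 5 of these 10 libraries were kept, which left 11901 of 54838 genes. The other 10 libraries are 5 domes of each of 2 control clones, whose genotype is written Tmprss2-fl/fl-ERG, and serve here only as a second pair of clones. Organoids of both genotypes came from the ventral prostate of a mouse aged 4 months and were grown from 3000 single cells per dome of 30 µL of Matrigel, a gel of basement membrane proteins. No agent was given to 1 clone and not to the other, as far as the labels say. Both genotype names hold Tmprss2 and ERG, so the control need not carry an unmodified Tmprss2 locus. The strain, the promoter that drives ERG in each line, and whether the 2 clones of a genotype came from separate mice are points on which the labels say nothing. The 5 domes of a clone are treated as technical replicates of 1 culture. All p-values below therefore measure the spread between domes of 2 cultures, with no spread between clones, and a difference belongs to these 2 cultures.

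Prostate organoids are cultures of epithelial cells that hold basal-type cells, which lie on the basement membrane and carry keratins 5 and 14, and luminal-type cells, which line the lumen and respond to androgen. In culture the basal-type cells divide, and they can take on a squamous program like that of skin, with keratin 1, keratin 10 and proteins of the cornified envelope. A clone grown from few cells can differ from its neighbour in growth, in the mix of these cell states and in genes fixed on or off in the founder.

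The libraries of both clones were alike in their overall make-up. The sum of FPKM over all genes ran from 748788 to 794589, 11859 to 12074 genes reached 1 FPKM, transcripts of the mitochondrial genome took 2.67% to 3.33% and cytosolic ribosomal protein genes 16.8% to 18.0% of the sum. Absolute depth is unknown, since FPKM keeps no read counts. In 2 T-ERG columns the header repeats a number. Both belong to clone 2 and are called domes a and b here. Mouse Erg, the ETS factor in the name of the genotype, was at 0.80 to 3.17 FPKM in clone 1 and 0.54 to 1.66 FPKM in clone 2, and these ranges overlapped (difference -0.41 ± 0.24 log2 units, SE, adjusted p = 0.231). Tmprss2, the androgen-regulated serine protease gene that the name also holds, was at 57.2, 48.9, 48.2, 48.5 and 42.6 FPKM in clone 1 and 38.8, 32.3, 36.1, 41.4 and 42.9 FPKM in clone 2. The domes of both clones overlapped, and the difference of -0.35 ± 0.09 log2 units (adjusted p = 0.0118) lost its call without domes a and b (adjusted p = 0.0603). Rad21, the cohesin subunit of the series title, was at 45.04 to 51.9 FPKM in clone 1 and 53.4 to 57.7 FPKM in clone 2, a difference of 0.16 ± 0.05 log2 units (adjusted p = 0.0321) that lost its call without any 1 of clone 1 domes 1, 2 and 5 or clone 2 domes b and 5 (adjusted p from 0.0537 to 0.0748).

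Both clones carried epithelial markers, and neither carried the secretory genes of the ventral prostate. The summed FPKM of 6 basal markers was 23100 to 24200 in clone 1 and 24700 to 25000 in clone 2. That of 9 luminal markers was 3190 to 3460 and 2210 to 2380. A set of 6 luminal progenitor markers summed to 9470 to 9910 FPKM in clone 1 and 5630 to 5780 FPKM in clone 2, and 6 squamous markers to 8940 to 9130 and 9520 to 9910 FPKM. Each of these 4 sums was without overlap between the clones. Abundant keratins weigh most in such sums: in clone 2 Krt19 averaged 1870 FPKM, Krt5 9800 FPKM and Krt14 11140 FPKM. Single members moved against their sum: luminal Krt8 and Krt18 rose and basal Krt15 fell, with values given below. All 5 ventral prostate secretory markers (Pbsn, Sbp, Spink1, Azgp1 and Msmb) stayed below 1 FPKM in every T-ERG library. Small sets of 3 markers each for immune, endothelial and neuroendocrine cells summed to at most 5.89 FPKM per set. In a longer list of 18 immune and endothelial markers 2 were tested, and 1 of them rose: Mcam, an adhesion molecule of endothelial and other cells, at 5.30 to 8.18 FPKM in clone 1 and 12.4 to 18.01 FPKM in clone 2 (difference 1.15 ± 0.13). Its part in other results was not tested. The fibroblast markers Col1a1, Col3a1 and Pdgfra were below 1 FPKM throughout, while Dcn had 3.52 to 4.69 FPKM in clone 1 and 0.30 to 1.41 FPKM in clone 2. In bulk RNA, fewer cells of a type and less RNA per cell cannot be told apart.

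Differences between the clones were many and mostly small. Of 11901 genes, 2219 (18.6%) passed an adjusted p of 0.05 as higher and 1701 (14.3%) as lower in clone 2, in a limma fit of 5 against 5 domes. The median absolute difference was 0.223 log2 units over all genes and 0.470 among the 3920 called, and 88.1% of the called genes differed by less than 1 log2 unit. Requiring at least 1 log2 unit as well left 201 genes higher (1.69%) and 264 lower (2.22%), so the larger changes leaned towards loss in clone 2. For 1644 of the genes tested (13.8%), whether called or not, every dome of clone 2 lay above every dome of clone 1, and for 1285 (10.8%) below. Domes of 1 clone correlated over genes with 0.962 to 0.972 and domes of different clones with 0.938 to 0.949, and the first principal component, with 36.7% of the variance, placed all 5 domes of a clone on its own side. The median SD between domes was 0.169 log2 units in clone 1 and 0.168 in clone 2. Differences in this text are on the log2(FPKM + 1) scale, where genes with low FPKM show less than their true fold, and each is given as clone 2 minus clone 1 with its SE. Counts of called genes in the lists below stand beside the shares of 18.6% higher and 14.3% lower over all genes.

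**Figure D1:**
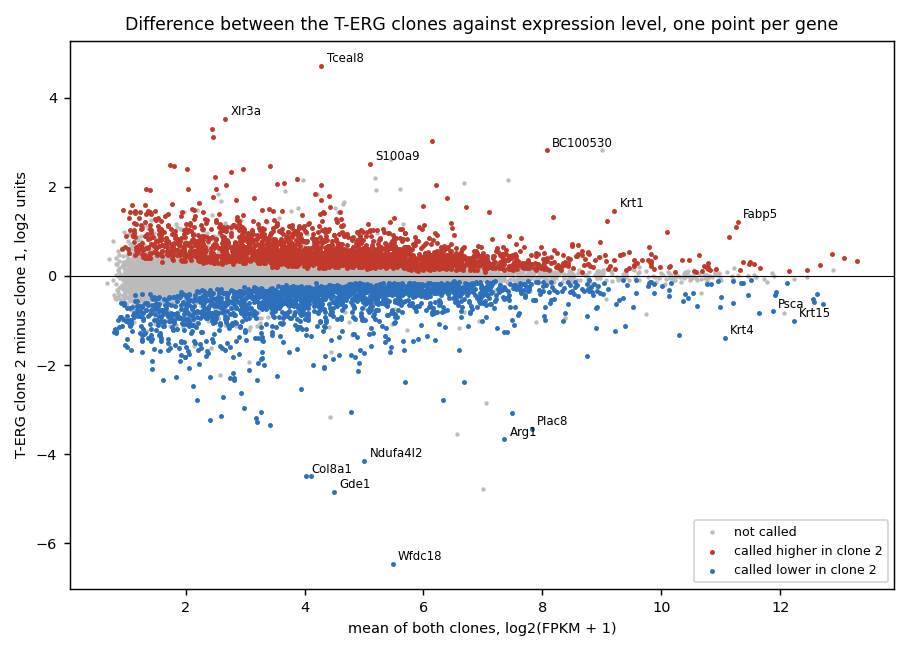
Each point is a gene, with the mean of both clones as log2(FPKM + 1) on the x axis and the difference clone 2 minus clone 1 in log2 units on the y axis. Red points passed an adjusted p of 0.05 as higher in clone 2 (2219 genes), blue points as lower (1701 genes) and grey points did not pass; Wfdc18, listed at 0 in all clone 2 domes, lies lowest, and Tceal8 highest.

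The deepest losses in clone 2 were of genes that clone 1 expressed at a clear level in every dome. Wfdc18, a secreted protein with a whey acidic protein domain (chromosome 11, 83709004 to 83711360), had 99.1, 80.1, 85.8, 93.6 and 78.5 FPKM in the domes of clone 1 and was listed at 0 in all 5 domes of clone 2 (adjusted p = 2.32e-12). Gde1, a membrane glycerophosphodiester phosphodiesterase (chromosome 7, 118688558 to 118705738), had 42.5, 39.03, 43.6, 42.5 and 46.01 FPKM in clone 1 and 0, 0.20, 0.68, 0.97 and 1.05 FPKM in clone 2, a difference of -4.84 ± 0.19 (adjusted p = 1.24e-08). Clone 2 thus kept at most a trace of either transcript, whereas both control clones expressed Gde1, with means of 60.3 and 48.98 FPKM. Col8a1, an alpha chain of collagen VIII (chromosome 16, 57624256 to 57754737), was at 29.5, 30.4, 29.2, 31.1 and 31.2 FPKM in clone 1 and 0.55, 0.22, 0.72, 0.21 and 0.29 FPKM in clone 2 (difference -4.50 ± 0.11, adjusted p = 3.28e-10). Slc16a11, of the monocarboxylate transporter family, was at 37.6, 31.04, 28.5, 26.9 and 36.5 FPKM and 0.50, 1.49, 0, 0 and 0.71 FPKM (difference -4.50 ± 0.24, adjusted p = 1.35e-07). Each of these 4 genes had every clone 2 dome below 2 FPKM and every clone 1 dome above 26 FPKM.

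Among the abundant genes, Arg1, the arginase that splits arginine into ornithine and urea, was at 284, 304, 307, 302 and 322 FPKM in clone 1 and 18.8, 24.1, 25.8, 21.4 and 25.01 FPKM in clone 2. The highest dome of clone 2 was thus far under the lowest of clone 1, a difference of -3.67 ± 0.08 (adjusted p = 9.11e-11). Plac8, a small cysteine-rich protein, was at 460.3, 401, 397, 422 and 386 FPKM in clone 1 and 33.4, 36.5, 33.5, 39.98 and 43.9 FPKM in clone 2 (difference -3.43 ± 0.08, adjusted p = 1.24e-10). Fxyd4, a regulatory subunit of the sodium-potassium pump, was at 365, 312, 278, 328 and 315 FPKM and 38.5, 40.9, 41.6, 35 and 29.2 FPKM (difference -3.08 ± 0.10, adjusted p = 3.03e-09). These 3 had at least 18 FPKM in every dome of clone 2, so they fell without being lost. Ndufa4l2, a mitochondrial protein known as a hypoxia-induced gene, had 46.3 to 76.1 FPKM in clone 1 and 1.03 to 5.03 FPKM in clone 2 (difference -4.15 ± 0.26). Others among the 14 genes with the largest falls were Pdlim4 (an actin-associated PDZ and LIM protein), Cxcl5 (a chemokine that draws neutrophils), Defb50 (a beta-defensin), Ociad2 and Clca2 (a regulator of chloride conductance). Their means were 12.9 to 18.4 FPKM in clone 1 and 0.78 to 1.20 FPKM in clone 2, and none of these 5 overlapped between the clones.

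Genes gained in clone 2 included 3 on the X chromosome that clone 1 expressed little or not at all. Tceal8, of a family of small nuclear proteins named for their likeness to elongation factor TFIIS (chromosome X, 136168984 to 136172251), was at 0, 1.23, 0.97, 0.22 and 0 FPKM in clone 1 and 33.1, 34.1, 31.6, 33.7 and 49.96 FPKM in clone 2 (difference 4.72 ± 0.24, adjusted p = 1.09e-07). Xlr3a (chromosome X, 73086293 to 73097095), of a lymphocyte-regulated X-linked family, was listed at 0 in the 5 domes of clone 1 and had 9.00, 14.2, 10.01, 9.05 and 11.4 FPKM in clone 2. Tex11 (chromosome X, 100838648 to 101059639), a meiotic protein of testis, was also listed at 0 in all domes of clone 1 and had 9.82, 9.39, 9.23, 7.82 and 8.04 FPKM in clone 2. The median of the chromosome did not stand out, since its 348 tested genes had a median difference of 0.05 log2 units against 0.04 over all genes. Of the 348, 10 rose and 4 fell by at least 1 log2 unit, where 201 rose and 264 fell among all 11901 genes. Xlr3a has near-identical copies, and the split of reads between them is uncertain.

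The other genes with the largest rises have varied known roles. Stefins, which block cysteine proteases, were represented by Stfa3, at 22.6, 15.4, 13.2, 6.41 and 17.9 FPKM in clone 1 and 105, 141, 99.6, 119 and 156 FPKM in clone 2 (difference 3.04 ± 0.26), and by Stfa2, at 0 to 0.84 and 4.97 to 6.43 FPKM. They lie side by side with Stfa1 and Gm5416 on chromosome 16, and all 4 were called higher in clone 2, but they are close copies whose reads may be shared. BC100530, which the files give no other name, was at 54.3 to 85.96 FPKM in clone 1 and 434 to 519.7 FPKM in clone 2 (difference 2.82 ± 0.10, adjusted p = 9.77e-09), and BC117090 at 0 to 2.56 and 3.82 to 13.2 FPKM. S100a9, a subunit of calprotectin, was at 11.4, 9.69, 7.00, 11.7 and 6.64 FPKM in clone 1 and 56.99, 43.6, 69.96, 52.8 and 62.5 FPKM in clone 2, and its partner S100a8 at 1.53 to 5.28 and 7.65 to 17.8 FPKM (differences 2.52 ± 0.17 and 1.75 ± 0.29). Both were without overlap between clones. Has3, a hyaluronan synthase, was at 2.02, 1.91, 2.32, 2.38 and 2.80 FPKM in clone 1 and 16.6, 18.8, 16.2, 18.3 and 16 FPKM in clone 2 (difference 2.47 ± 0.10, adjusted p = 1.32e-08). Ereg, the EGF receptor ligand epiregulin, was at 3.73, 4.79, 4.80, 4.04 and 4.18 FPKM and 22.01, 23.9, 25.8, 20.1 and 23.7 FPKM (difference 2.18 ± 0.09, adjusted p = 2.09e-08). For Has3 and Ereg, too, every dome of clone 2 lay above every dome of clone 1. The last 4 of the 14 largest gains were Ccl2, a chemokine for monocytes, Ptprz1, a receptor tyrosine phosphatase, Tubb3, a beta tubulin best known from neurons, and Dsg1a, a desmoglein. They had means of 1.48 to 3.80 FPKM in clone 1 and 9.27 to 19.4 FPKM in clone 2.

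**Figure D2:**
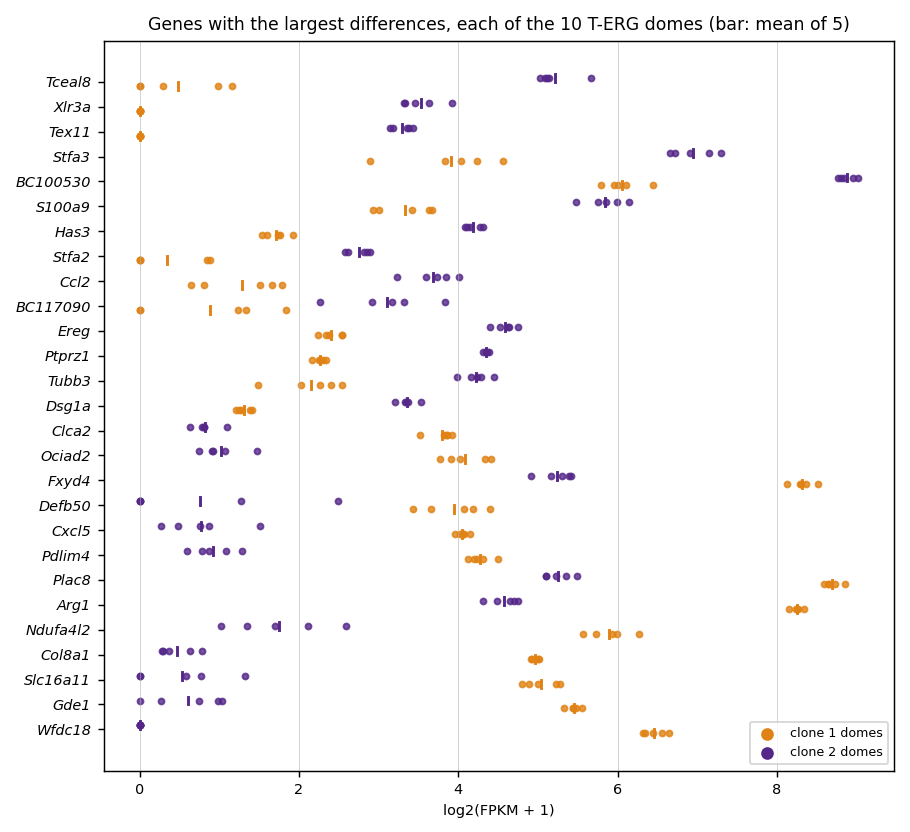
Expression as log2(FPKM + 1) on the x axis of the genes with the largest rises (14 shown) and falls (13 shown) in clone 2, each point 1 dome (orange clone 1, purple clone 2) and each vertical bar the mean of 5 domes. No gene shown has overlapping domes, and Wfdc18 in clone 2 and Xlr3a and Tex11 in clone 1 sit at 0 in all 5 domes.

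On-off genes, counted as under 1 FPKM in all 5 domes of 1 clone and at least 3 FPKM in all 5 of the other, numbered 15. This count was chosen after the values were seen. Off in clone 2 were 9 of them, among which were Wfdc18, Col8a1, Slc39a8 (a zinc transporter), Cd34 (a sialomucin of progenitor cells), Ramp1 (a partner of the calcitonin receptor-like receptor), Fbxo32 (a subunit of a ubiquitin ligase), Mia and the noncoding Gm10451. Slc39a8 was at 6.73, 6.53, 5.84, 7.39 and 5.51 FPKM in clone 1 and 0.18, 0.27, 0.24, 0.76 and 0.32 FPKM in clone 2, and Cd34 at 3.00 to 3.79 FPKM in clone 1 and at most 0.11 FPKM in clone 2. Off in clone 1 were the other 6: Stfa2, Tex11, Xlr3a, Igf2bp3 (an RNA-binding protein of fetal tissue), Pcdhgb6 (a gamma protocadherin) and the pseudogene Clec2f. Igf2bp3 was listed at 0 in every clone 1 dome and had 4.30, 4.53, 5.38, 3.86 and 5.37 FPKM in clone 2, and both control clones had means of at most 0.072 FPKM. Snrpn, an imprinted gene of the small nuclear ribonucleoprotein family, missed the count narrowly: it had 4.19, 4.64, 4.88, 4.36 and 2.67 FPKM in clone 1 and was listed at 0 in all domes of clone 2.

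Cell cycle genes were higher in clone 2 nearly without exception. Of 40 DNA replication genes, 38 rose, none fell and 10 rose by at least 1 log2 unit, with a median difference of 0.79 log2 units against 0.04 over all genes. Of 40 genes of mitosis and the spindle, 38 rose, none fell and 17 rose by at least 1 log2 unit (median 0.97). Mcm5, a subunit of the replicative helicase, was at 19.01, 18.4, 18.4, 21.7 and 20.7 FPKM in clone 1 and 45.8, 48.8, 47.9, 45.9 and 40.2 FPKM in clone 2 (difference 1.18 ± 0.07, adjusted p = 3.39e-07). Mcm2, of the same helicase, rose by 1.14 ± 0.11 and Orc1, of the origin recognition complex, by 1.01 ± 0.23. Plk1, a mitotic kinase, was at 12.3, 15.4, 12.96, 12.4 and 13.01 FPKM in clone 1 and 33.4, 37.4, 34.2, 32.5 and 31.02 FPKM in clone 2 (difference 1.29 ± 0.08, adjusted p = 3.08e-07). Mki67, the gene of the proliferation antigen Ki-67, was at 12.1, 12.1, 15.3, 14.1 and 12.3 and 32.5, 30.9, 35.1, 29.7 and 30.02 FPKM (difference 1.21 ± 0.08), and Cdc20, an activator of the anaphase-promoting complex, at 25.1, 23.6, 26.7, 28.1 and 22.2 and 58.98, 57.98, 64.3, 58.4 and 55.7 FPKM (difference 1.20 ± 0.07). In each of these 4 every dome of clone 2 lay above every dome of clone 1. The control clones differed the same way, with list medians of 0.87 for replication and 0.99 for mitosis. The interaction test compares 2 pairs of cultures, not genotypes, and takes the T-ERG clone difference minus the control one, with its sign. This was positive for 3 and negative for 8 of the called among 40 replication genes. Among 40 mitosis genes it was called positive for 2 and negative for 6, beside 10.2% positive and 17.3% negative over all genes.

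Promoters of these genes carry the sequence elements that textbooks assign to the timing of cell cycle transcription: E2F sites, used in late G1 and S phase, and the cell cycle genes homology region (CHR), used in G2 and mitosis. They are shown because both lists rose together. The E2F letters searched were TTTCCCGC, TTTGGCGC, TTTCGCGC and TTTGCCGC, those of the CHR were TTTGAA, on both strands and in 300 bases around each RefSeq start (250 before and 50 after). A gene was counted once, as a holder if any of its promoters had a match. An E2F match was held by 13 of 32 replication genes (40.6%), by 3 of 33 mitosis genes (9.09%) and by 4.94% of the 8751 tested genes that had a promoter sequence. A CHR match was held by 4 of 32 replication genes (12.5%), by 24 of 33 mitosis genes (72.7%) and by 14.1% of all. The 250 bases before the start follow for 2 promoters of each kind, from RefSeq on GRCm38.p6, 5′ to 3′ on the gene's strand, with the matches in capitals. These were taken by size of difference from genes whose promoter holds a match. Positions are given for the middle of a match, in bases before the start. Mcm5 (chr8:75109259-75109508, plus strand) holds overlapping E2F matches on both strands at 149 and 145 bases. Orc1 (chr4:108579204-108579453, plus strand) holds 1 E2F match at 23 bases, before a start that lies inside the gene's span (108575705 to 108616030). Mki67 (chr7:135716380-135716629, minus strand) holds CHR matches at 113 and 95 bases, and Cdc20 (chr4:118437344-118437593, minus strand) holds 1 at 15 bases. A match is a description of letters and says nothing of binding.
Mcm5: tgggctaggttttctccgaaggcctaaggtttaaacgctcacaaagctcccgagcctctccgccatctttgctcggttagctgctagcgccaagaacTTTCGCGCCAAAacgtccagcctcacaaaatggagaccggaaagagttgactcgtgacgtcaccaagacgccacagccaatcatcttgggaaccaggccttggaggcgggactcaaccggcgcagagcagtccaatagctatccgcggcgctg
Orc1: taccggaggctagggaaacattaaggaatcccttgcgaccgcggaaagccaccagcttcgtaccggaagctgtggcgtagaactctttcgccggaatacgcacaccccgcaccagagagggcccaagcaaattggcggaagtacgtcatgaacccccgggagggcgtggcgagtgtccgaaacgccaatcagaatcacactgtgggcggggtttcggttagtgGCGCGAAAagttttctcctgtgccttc
Mki67: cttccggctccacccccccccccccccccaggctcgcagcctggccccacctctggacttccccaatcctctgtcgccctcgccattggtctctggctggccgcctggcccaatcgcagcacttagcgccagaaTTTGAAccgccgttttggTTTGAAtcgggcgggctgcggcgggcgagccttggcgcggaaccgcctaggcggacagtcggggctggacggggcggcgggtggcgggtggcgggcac
Cdc20: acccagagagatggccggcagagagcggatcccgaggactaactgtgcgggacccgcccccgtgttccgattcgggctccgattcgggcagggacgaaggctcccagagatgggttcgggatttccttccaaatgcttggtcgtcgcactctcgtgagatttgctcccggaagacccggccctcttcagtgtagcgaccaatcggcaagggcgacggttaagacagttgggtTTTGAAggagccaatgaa

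Genes of genome maintenance rose in smaller numbers, beside 18.6% of all genes called higher and 14.3% lower. Of 26 genes of homologous recombination and replication stress, 18 rose and none fell (median 0.60), and of 19 genes of double-strand break sensing and end joining, 7 rose and none fell (median 0.36). Exo1, an exonuclease that resects DNA ends, was at 2.63, 7.06, 6.42, 4.47 and 4.23 FPKM in clone 1 and 20.4, 14.4, 15.6, 15.5 and 9.43 FPKM in clone 2 (difference 1.45 ± 0.23, adjusted p = 0.000664). H2afx, the histone phosphorylated at breaks, rose by 1.05 ± 0.06. Of 18 genes of cohesin and its regulators 7 rose and none fell (median 0.18). Cdca5, the sororin that protects cohesin in G2, rose by 1.01 ± 0.12, and the ring subunits Smc1a and Smc3 by 0.43 and 0.37. Among 15 cyclins and cyclin-dependent kinase inhibitors 6 rose and 4 fell: cyclin D2 (Ccnd2) rose by 0.55 ± 0.05, while the kinase inhibitor Cdkn2b and the retinoblastoma gene Rb1 had differences of -0.69 ± 0.08 and -0.55 ± 0.14. Of 21 genes of Trp53 and its targets 8 rose and 4 fell, with no difference of 1 log2 unit.

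Genes for making ribosomes rose, while few genes for the ribosome's own proteins passed the test. The shares over all genes were 18.6% higher and 14.3% lower. Of 30 ribosome biogenesis genes 28 rose, none fell and none reached 1 log2 unit (median 0.62), whereas of 45 cytosolic ribosomal protein genes 6 rose and 3 fell, with a median of 0.00. Grwd1, a chaperone of ribosome assembly, was at 15.6, 13.6, 13.2, 15.3 and 14.9 FPKM in clone 1 and 29.1, 28.3, 26.2, 29.4 and 28.9 FPKM in clone 2 (difference 0.93 ± 0.07, adjusted p = 1.3e-06), and Wdr12, of the large-subunit assembly machinery, rose by 0.94 ± 0.13. Of 33 aminoacyl-tRNA synthetases and initiation factors 19 rose and 2 fell (median 0.22). Of 39 nuclear genes of oxidative phosphorylation 18 rose and none fell, but with a median of 0.14. Among polyamine genes, Odc1, ornithine decarboxylase, and Srm, spermidine synthase, rose by 0.96 ± 0.08 and 0.84 ± 0.08, while Arg1, which supplies ornithine, had the fall given above. Hspd1, the mitochondrial chaperonin, was at 138, 139, 151, 140.5 and 138 FPKM in clone 1 and 246, 264, 254, 249.8 and 273 FPKM in clone 2 (difference 0.86 ± 0.04). Among 31 proteasome subunits 12 rose and 1 fell (median 0.13), and among 24 cholesterol synthesis genes 11 rose and 1 fell (median 0.18).

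More luminal and luminal progenitor genes fell than rose in clone 2. Of 23 luminal markers 18 fell and 2 rose (median -0.53), and of 22 luminal progenitor markers 16 fell and 2 rose (median -0.75), against 14.3% of all genes called lower. Psca, the prostate stem cell antigen, was at 4953, 4901, 4730, 4648 and 4620 FPKM in clone 1 and 2809, 2672, 2746, 2801 and 2741 FPKM in clone 2 (difference -0.79 ± 0.03, adjusted p = 4.83e-09). Krt4, a keratin of stratified and progenitor epithelium, was at 3074, 3136, 3200, 3019 and 3132 and 1203, 1207, 1203, 1187 and 1128 FPKM (difference -1.39 ± 0.03, adjusted p = 6.36e-11). Epcam, an adhesion molecule of simple epithelium, was at 247, 221, 227, 233 and 256 and 121, 111, 120.3, 119.7 and 126 FPKM (difference -0.98 ± 0.05). All 3 were without overlap between clones. Also lower were Lcn2, an iron-siderophore carrier (-1.96 ± 0.08), Cyp2f2, a cytochrome P450 (-1.82 ± 0.24), Hpgd, which inactivates prostaglandins (-1.72 ± 0.11), Cbr2, a carbonyl reductase (-1.32 ± 0.03), Prom1 (-1.26 ± 0.17) and the transcription factors Sox9 (-1.15 ± 0.08) and Foxa1 (-0.64 ± 0.06). The progenitor genes that rose were Aqp3 and Gsdmc2, a gasdermin, at 0.32 to 1.09 FPKM in clone 1 and 2.34 to 3.80 FPKM in clone 2 (difference 1.29 ± 0.18). Against the luminal list, Krt18 was at 52.9, 44.5, 46.5, 48.1 and 50.99 FPKM in clone 1 and 96.1, 92.2, 92.6, 92.04 and 103 FPKM in clone 2 (difference 0.96 ± 0.06), and its partner keratin Krt8 rose by 0.60 ± 0.05. Krt19, another luminal keratin and much more abundant, had a difference of -0.61 ± 0.03. Of 23 androgen-responsive and related genes 13 fell and 2 rose (median -0.38). Steap4, a metalloreductase, was at 12.7 to 14.9 FPKM in clone 1 and 3.62 to 4.66 FPKM in clone 2. Ndrg1, which hypoxia also induces, was at 54.3 to 69.2 and 15.5 to 30.02 FPKM, and Pmepa1, which TGF-beta also induces, at 93.02 to 109.9 and 41.1 to 55.9 FPKM. These 3 fell, while Nrp1, a co-receptor for VEGF, rose, with 0.62 to 1.31 and 2.39 to 3.61 FPKM.

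Falls outnumbered rises in the lists of tight junction, ion transport and membrane protease genes, beside 14.3% of all genes called lower. Of 19 claudins and tight junction genes 10 fell and 1 rose (median -0.32). Cldn3 was at 23.1, 20.6, 19.6, 18.4 and 21.1 FPKM in clone 1 and 7.14, 8.05, 6.90, 12.2 and 8.79 FPKM in clone 2 (difference -1.19 ± 0.13), Cldn7 had a difference of -1.16 ± 0.12, and Cldn8, at low levels, rose by 0.85 ± 0.15 (adjusted p = 0.0011, and 0.0537 with the 3 numbered domes per clone alone). Of 16 genes of ion, chloride and water transport 10 fell and 2 rose (median -0.47). Beside Fxyd4 and Clca2, Clca1, a secreted regulator of chloride channels, was at 176, 166, 177, 172 and 169 FPKM in clone 1 and 31.6, 32.2, 32.6, 32.98 and 30.6 FPKM in clone 2 (difference -2.39 ± 0.04). The pump subunit Atp1b1 and its regulator Fxyd3 had differences of -0.70 ± 0.04 and -0.69 ± 0.08, and the water channel Aqp3, which is in both the basal and the luminal progenitor list, rose by 0.47 ± 0.05. Of 15 membrane serine proteases and inhibitors 10 fell and 2 rose (median -0.39), among them Prss27 (-0.99 ± 0.08) and Prss32 (-1.09 ± 0.19).

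Basal markers split by gene. Of 24, 10 rose and 7 fell (median 0.07). Krt15, a keratin of basal progenitors, was at 6212, 6440, 6234, 6418 and 6829 FPKM in clone 1 and 3219, 3216, 3075, 3086 and 3321 FPKM in clone 2 (difference -1.01 ± 0.03, adjusted p = 3.15e-09). Krt17, a keratin of activated epidermis, was at 318, 322, 318, 327 and 324 and 747, 748, 758, 793 and 772 FPKM (difference 1.24 ± 0.03, adjusted p = 1.01e-10). Both had domes within 1 clone that lay close together and clones that lay far apart, in opposite directions. The main basal keratins moved less: Krt5 rose by 0.41 ± 0.03, and Krt14 by 0.33 ± 0.02, a call that was lost with quantile normalization, where the sign turned (-0.03).

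**Figure D3:**
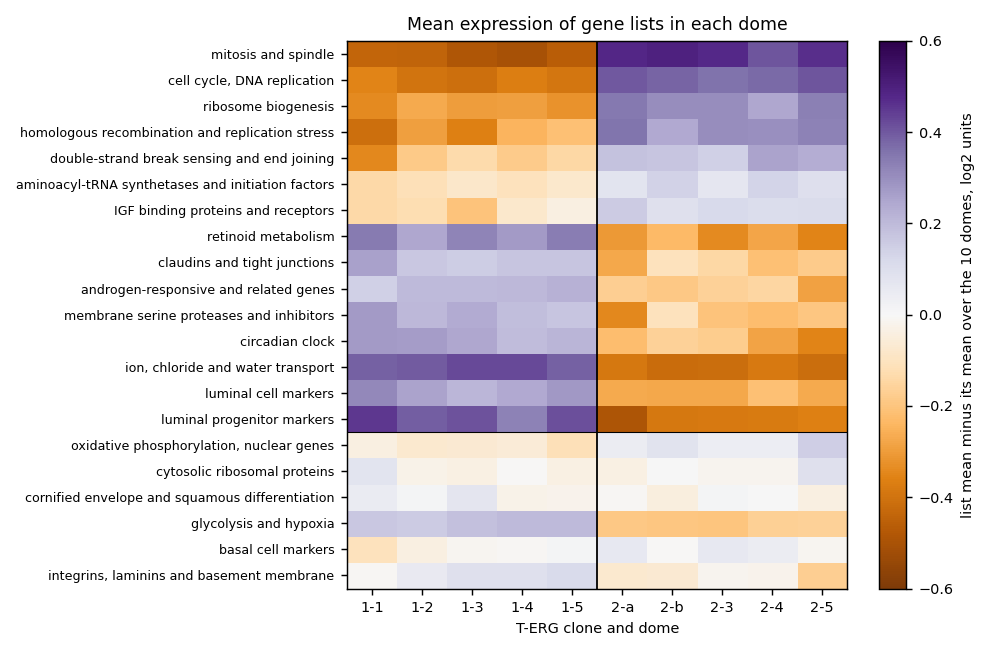
Mean log2(FPKM + 1) of the tested members of each gene list in each of the 10 domes, shown as the difference from the list's mean over the 10 domes (colour scale in log2 units, cut at 0.6). The upper rows are the lists of at least 10 tested genes with a median difference of at least 0.2 log2 units either way, the lower rows 6 other lists, and the line marks the border between clones 1 and 2.

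Genes of glycolysis and hypoxia went both ways in clone 2, and several that low oxygen induces were lower. The genes of the list that rose were Hif1a and the glycolytic enzyme genes Pfkl, Pfkp, Gapdh, Eno1, Pkm and Ldha. Of 33 genes of glycolysis and hypoxia 15 fell, 8 of them by at least 1 log2 unit, and 7 rose (median -0.14). Bnip3, a mitophagy receptor, was at 40.8, 38.4, 34.6, 42.6 and 50.6 FPKM in clone 1 and 15.6, 8.13, 12.2, 8.71 and 13.7 FPKM in clone 2 (difference -1.77 ± 0.17, adjusted p = 1.32e-05). Egln3, a prolyl hydroxylase that acts on hypoxia-inducible factor, was at 84.6, 87.2, 78.9, 83.5 and 76.1 and 26.2, 30.04, 29.7, 29.9 and 30.6 FPKM (difference -1.46 ± 0.06). Car9, a carbonic anhydrase, was at 5.59, 4.68, 4.49, 4.13 and 5.62 and 0.37, 3.45, 0.65, 2.21 and 2.09 FPKM (difference -1.23 ± 0.29). No dome overlapped in these 3. Ankrd37 (-1.78 ± 0.17) and Ndrg1 (-1.40 ± 0.14) fell too, and the lactate exporter Slc16a3 was listed at 0 in clone 2 and had 1.77, 1.61, 2.14, 2.01 and 2.12 FPKM in clone 1. Against these, Hif1a, the factor's own gene, was at 66.96, 61.9, 71.1, 68.5 and 61.2 FPKM in clone 1 and 105, 111, 115, 100.2 and 109 FPKM in clone 2 (difference 0.71 ± 0.06), and pyruvate kinase Pkm rose by 0.35 ± 0.03. The control clones differed the other way over the list (24 higher, 5 lower, median 0.30). By the interaction test, 25 of the 33 genes had a clone difference less positive or more negative in the T-ERG pair than in the control pair, against 17.3% of all genes.

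Retinoid genes fell at several steps of the pathway in clone 2. Of 14, 7 fell, 5 of them by at least 1 log2 unit, and 3 rose (median -0.23). Aldh1a3, which makes retinoic acid, was at 143, 148, 147, 147 and 148 FPKM in clone 1 and 46.2, 46, 44.9, 45.01 and 47.2 FPKM in clone 2 (difference -1.65 ± 0.03, adjusted p = 7e-11). Dhrs3, which turns retinal back to retinol, had a difference of -1.12 ± 0.07, Lrat, which stores retinol as esters, -1.29 ± 0.14, and the retinoic acid receptor Rarb -1.49 ± 0.16. Rdh11, a retinol dehydrogenase, rose by 0.55 ± 0.08. In control, clone 2 had Rarb higher (1.34). Of 16 circadian clock genes 8 fell and 1 rose (median -0.46). Bhlhe41, a repressor of the clock that low oxygen can also induce, was at 28.3, 33.1, 40.1, 32.5 and 23.3 FPKM in clone 1 and 6.57, 8.45, 6.87, 6.80 and 4.89 FPKM in clone 2 (difference -2.07 ± 0.15), and Dbp, an output factor of the clock, had -1.40 ± 0.15. Arntl, the activator that runs opposite in phase to these in many tissues, rose by 0.46 ± 0.08. The labels give no hour of harvest for either clone.

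Squamous genes did not move as a block. Of 50 genes of the cornified envelope and squamous differentiation 18 rose and 18 fell, with a median of -0.04 log2 units. Krt1, a keratin of the suprabasal epidermis, was at 298, 314, 328, 316 and 314 FPKM in clone 1 and 853, 866, 873, 874 and 878 FPKM in clone 2 (difference 1.47 ± 0.03, adjusted p = 6.66e-11), while its partner Krt10 was at 1641, 1659, 1610, 1627 and 1652 and 1139, 1185, 1185, 1155 and 1125 FPKM (difference -0.50 ± 0.02, adjusted p = 7.82e-08). Keratins 1 and 10 pair in filaments, and here they moved in opposite directions, both without overlap. Krt16, a keratin of stressed epidermis, rose by 1.11 ± 0.03, and Krt6b, whose near-copy Krt6a can share its reads, by 1.00 ± 0.03. Krtdap, a secreted protein of differentiating keratinocytes, rose by 0.87 ± 0.05. Falls were seen in Krt13 (-0.82 ± 0.02), the mucosal keratin that pairs with Krt4, and in late proteins of the cornified layer: Flg, filaggrin, at 9.29, 9.40, 11.04, 14.5 and 7.76 FPKM in clone 1 and 1.15, 1.39, 1.26, 1.23 and 2.49 FPKM in clone 2 (difference -2.18 ± 0.18), Cdsn, corneodesmosin (-1.51 ± 0.17), Crnn, cornulin (-1.12 ± 0.06), and Cnfn, cornifelin (-0.89 ± 0.07).

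Desmosomal cadherins of stratified epidermis rose, and the more widely expressed Dsc2 fell. Dsg1a was at 1.41, 1.62, 1.31, 1.38 and 1.66 FPKM in clone 1 and 9.37, 10.6, 9.13, 8.21 and 9.10 FPKM in clone 2 (difference 2.05 ± 0.10), and is uncertain because Dsg1b is a near-copy. Dsc1 was at 1.94, 1.68, 0.97, 2.16 and 0.92 and 7.05, 8.71, 7.48, 7.74 and 6.71 FPKM (difference 1.78 ± 0.16), and Dsc3 at 23.6, 23.7, 26.01, 26.4 and 26.1 and 62.8, 68.02, 67.9, 59.7 and 61.3 FPKM (difference 1.31 ± 0.06). No dome of clone 1 reached a dome of clone 2 in these 3. Dsc2 had a difference of -0.44 ± 0.04. Dsg2, also widely expressed, had one of -0.24 ± 0.08 with overlapping domes (adjusted p = 0.0355), and missed the threshold without any 1 of clone 1 domes 3, 4 and 5 or clone 2 domes a, b, 4 and 5 (adjusted p from 0.0538 to 0.086). Over 13 desmosome genes 5 rose and 2 fell. Of 10 genes of fatty acid binding and PPAR signalling, 4 rose and 3 fell. Fabp5, the epidermal fatty acid-binding protein, was at 1405, 1521, 1460, 1496 and 1618 FPKM in clone 1 and 3463, 3448, 3416, 3402 and 3734 FPKM in clone 2 (difference 1.22 ± 0.04, uncertain where processed copies share its reads), and Fabp4, of the same family, rose by 2.04 ± 0.16. Plin3, a lipid droplet coat, and Acadm, an enzyme of fatty acid oxidation, had differences of -0.59 ± 0.06 and -0.54 ± 0.13, and Acadm missed the threshold with the 3 numbered domes per clone alone (adjusted p = 0.0711). Plin2, another droplet coat that is outside this list, rose by 1.12 ± 0.16.

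**Figure D4:**
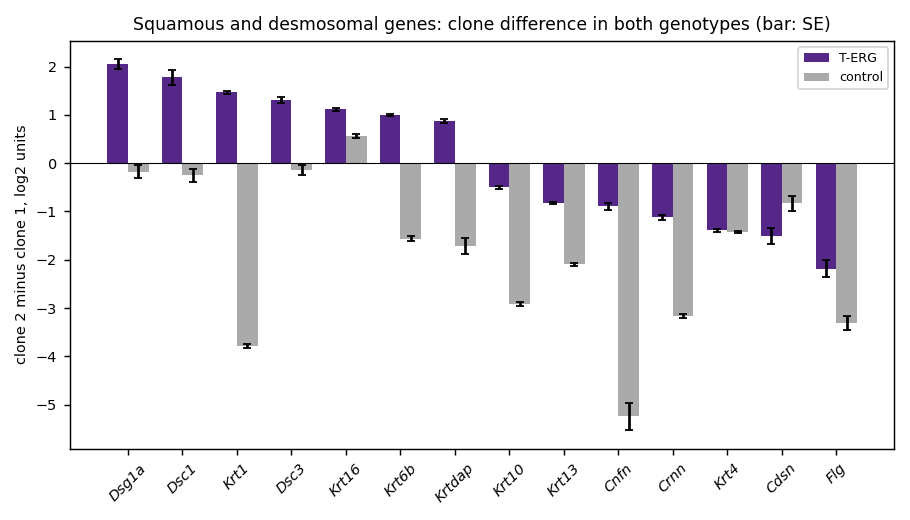
Clone 2 minus clone 1 difference in log2 units, with SE, of 14 squamous and desmosomal genes in T-ERG (purple) and in control (grey), 5 domes per clone. In T-ERG, Dsg1a to Krtdap were higher and Krt10 to Flg lower in clone 2; in control Krt16 was the only one of the 14 with a positive difference.

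Secreted signals changed gene by gene, where 18.6% of all genes were called higher and 14.3% lower. Among 13 genes of the EGF receptor family 4 rose and 2 fell. Epgn, the ligand epigen, was at 4.35, 4.83, 5.14, 5.15 and 3.07 FPKM in clone 1 and 12.99, 14.3, 16.6, 13.2 and 15.6 FPKM in clone 2 (difference 1.51 ± 0.13), and lies next to Ereg on chromosome 5, whereas Egfr itself had a difference of 0.01 (means 13.8 FPKM in both clones) and Areg, amphiregulin, also 0.01 (135 and 136 FPKM). Targets of ERK signalling rose in part, 5 of 14 with none lower: Fosl1, an AP-1 subunit, by 1.13 ± 0.12 and Etv4, an ETS factor, by 0.91 ± 0.09. The control pair had 12 of these 14 genes higher and 1 lower in clone 2 (median 0.75 against 0.16 in T-ERG). Chemokines went both ways, with 5 of 18 higher and 6 lower. Ccl2 was at 1.86, 2.46, 2.16, 0.75 and 0.56 FPKM in clone 1 and 8.37, 15.1, 13.4, 11.1 and 12.2 FPKM in clone 2, and Cxcl5 at 16.7, 15.2, 15.6, 14.5 and 15.9 and 0.20, 0.40, 0.69, 1.84 and 0.82 FPKM (differences 2.40 ± 0.24 and -3.28 ± 0.20). Ccl20 (1.31 ± 0.23) and Cxcl1 (0.97 ± 0.09) rose, and Cxcl3 (-1.10 ± 0.20, adjusted p = 0.00168) and the alarmin Il33 (-1.01 ± 0.06) fell. Cxcl3 missed the threshold with the 3 numbered domes per clone alone (adjusted p = 0.0596). Of 12 antimicrobial and acute phase proteins, which include S100a8, S100a9, Lcn2 and Wfdc18, 3 rose and 5 fell, 4 of those by at least 1 log2 unit (median -0.10). In control, 15 of the 18 chemokines were higher in clone 2 (median 1.46), among them Cxcl5, by 4.75, and Cxcl3, by 5.01.

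More matrix and adhesion genes fell than rose. Of 27 integrins, laminins and basement membrane genes 12 fell and 6 rose (median -0.07), and only 1, Col7a1, fell by at least 1 log2 unit. Col7a1, the anchoring fibril collagen, was at 246, 245, 232, 226 and 243 FPKM in clone 1 and 93.03, 112, 95.6, 111 and 90 FPKM in clone 2 (difference -1.25 ± 0.07, adjusted p = 1.28e-07). Outside these 27, Nt5e, the CD73 nucleotidase of the YAP and TEAD list, was at 28.1, 29.1, 32.6, 31.1 and 31.2 and 7.97, 8.81, 8.16, 8.75 and 6.90 FPKM (difference -1.79 ± 0.08, adjusted p = 2.56e-08). Both were without overlap between the clones. Sparc, a matrix glycoprotein that is also outside the 27, had -1.74 ± 0.11. Tnc, tenascin C, had -0.91 ± 0.12, and Mmp7, matrilysin, -0.55 ± 0.05, while integrin alpha 3 (Itga3) rose by 0.49 ± 0.05. Of 26 TGF-beta and BMP genes 9 fell and 5 rose, and of 18 YAP and TEAD targets 5 fell and 1 rose, beside 14.3% of all genes lower and 18.6% higher. In the control pair 21 of the 27 matrix genes were higher in clone 2 (median 0.96). For 21 of 27 the clone difference was less positive or more negative in the T-ERG pair by the interaction test, against 17.3% of all genes.

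Single genes stood out in several further lists. Gsta1, a glutathione transferase, was at 34.3, 31.7, 48.02, 41.2 and 35.8 FPKM in clone 1 and 126, 134, 135, 119.7 and 132 FPKM in clone 2 (difference 1.75 ± 0.10), and its reads may be shared with close copies such as Gsta2. Cyp2b10, a drug-inducible cytochrome P450, had -1.72 ± 0.07. Among zinc transporters Slc30a5 rose by 1.12 ± 0.11 while Slc39a8 was lost. In the BCL2 family the pro-death Bik had -1.68 ± 0.17 and the pro-survival Bcl2 -0.93 ± 0.11. Wnt3a, a secreted Wnt ligand, was at 0.67 to 1.64 FPKM in clone 1 and 3.11 to 3.80 FPKM in clone 2, and Igfbp3, which binds insulin-like growth factors outside the cell, at 33.2 to 38.7 and 60.1 to 72.9 FPKM, and both rose. Beside 18.6% of all genes higher and 14.3% lower, of 19 interferon-stimulated genes 4 fell and 1 rose, of 11 genes of antigen presentation by MHC class I 3 fell and none rose, and of 27 lysosome and autophagy genes 10 fell and 2 rose (median -0.15). Wnt genes fell more often (3 higher and 8 lower of 22), among them Fzd7 (-0.72 ± 0.09) and Wnt5a (-0.65 ± 0.12), as did the BCL2 family (2 and 5 of 14). Metallothioneins and zinc transporters (6 and 2 of 14) and IGF binding proteins and receptors (6 and 2 of 11) rose more often. Calls went both ways in similar numbers in mitochondrial genome transcripts (2 higher and 3 lower of 12), ATF4 and amino acid stress (4 and 4 of 21) and Notch genes (3 and 4 of 14).

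The 2 control clones, which share no library with the T-ERG clones, give a measure of what another pair of clones shows over the same 11901 genes. There, 3172 genes (26.7%) were higher and 1645 (13.8%) lower in clone 2. Of the genes higher in T-ERG clone 2, 50.9% were also higher in control clone 2 (35.6% of the control list) and 6.99% were called lower there. Of the genes lower in T-ERG clone 2, 35.4% were also lower in control clone 2 (36.7% of the control list) and 24.9%, or 423 genes, were called higher there. Across genes the differences of both pairs correlated with r = 0.177, as a description, since genes are not independent replicates and a clone number says nothing across genotypes. By the interaction test the clone difference of the T-ERG pair differed from that of the control pair for 3273 genes. This compares single pairs of cultures against the spread between domes. Clone numbers pair nothing across genotypes, so it is no test of genotype, and its sign depends on the numbering. The T-ERG difference was more positive or less negative for 1210 (10.2%), and less positive or more negative for 2063 (17.3%). With quantile normalization these were 1596 and 1679. The 28 genes with the largest differences were chosen by the T-ERG difference, which enters the interaction test, and 27 of them passed it. In control 12 were called the same way, 11 the other way and 5 not at all. Plac8, for example, was at 170 FPKM in control clone 1 and 831 FPKM in control clone 2, the reverse of its order in T-ERG. Krt1 had means of 299 and 20.8 FPKM and Fabp5 of 281 and 209.5 FPKM in control clones 1 and 2, again the reverse. Defb50 was the exception, with a difference of -2.91 in control against -3.20 in T-ERG (adjusted p of the interaction = 0.772). By lists, the cell cycle and ribosome biogenesis medians were close in both pairs of clones, those of ion transport (-0.47 in T-ERG and -0.46 in control) too. The cornified envelope list had a median of -0.89 in control against -0.04 in T-ERG. For 34 of its 50 genes the clone difference was more positive or less negative in the T-ERG pair.

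**Figure D5:**
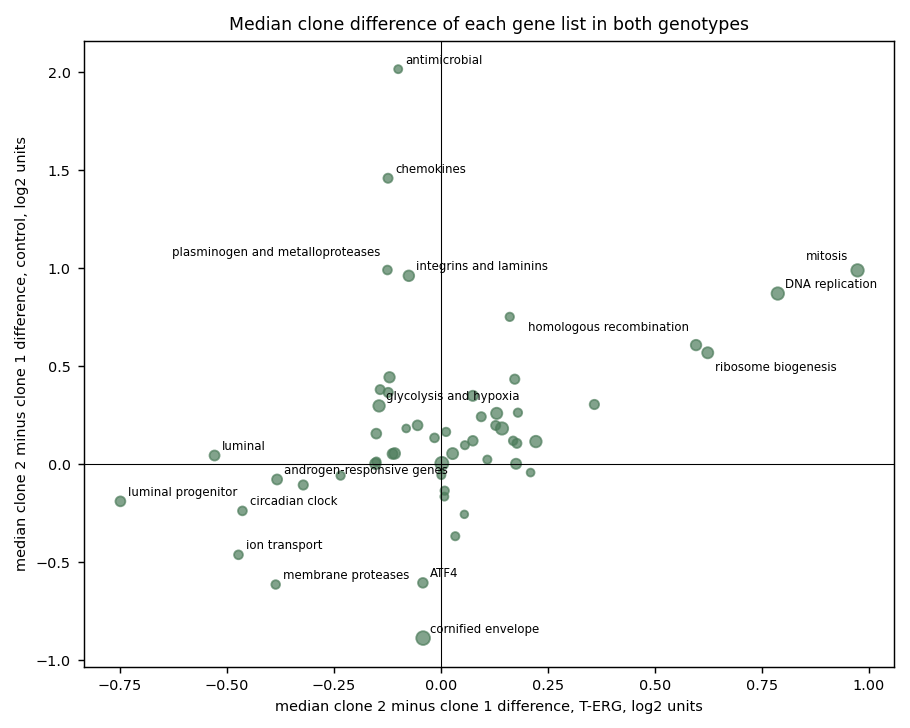
Median clone 2 minus clone 1 difference of each gene list with at least 10 tested genes, in T-ERG on the x axis and in control on the y axis (log2 units, larger points for longer lists). Mitosis (0.97 and 0.99) and DNA replication (0.79 and 0.87) lie at the upper right, luminal progenitor markers (-0.75 and -0.19) at the left, and the cornified envelope (-0.04 and -0.89) at the bottom.

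No chromosome carried the differences as a whole. Over chromosomes 1 to 19 and X, the median difference between the T-ERG clones ran from -0.002 (chromosome 3) to 0.08 (chromosome 1), and the share of genes called higher from 13.6% (chromosome 14) to 23.6% (chromosome 1). Positions could be given to 96.9% of tested genes, by symbol, from RefSeq on GRCm38.p6. On chromosome 18, 11 of 297 genes rose and 2 fell by at least 1 log2 unit, and on chromosome 3, 11 of 588 rose and 21 fell.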

How the data were processed

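RNA from 1 dome gave 1 library. The authors deposited 1 table of log2 values, which return to FPKM with 2 decimals for 100% of entries (within 0.001 hundredths) when read as log2(FPKM + 1), so the pseudocount of 1 is theirs. RSEM 1.3.0, DESeq2 and the mouse build mm10 are named in the submitters' processing notes, without their roles. No source used here names the aligner or the annotation. FPKM keeps no read counts, so no count test, counting interval or detection limit was possible and the depth behind a value is unknown. No column of per-sample values was left unused among the RNA libraries, and 4 whole-genome libraries were not analysed here.

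Columns were assigned to clones by their headers. A header number that occurs in 2 columns of clone 2 gave the unnumbered domes a and b. Genes with at least 1 FPKM in at least 5 of the 10 T-ERG libraries were tested with limma 3.58.1 (R 4.3.3, empirical Bayes with an intensity trend) with the domes of both clones as the only groups. P-values were adjusted by the Benjamini-Hochberg method over all 11901 genes, with a threshold of 0.05. The control clones were fitted on the same genes, and the difference between the T-ERG pair and the control pair as an interaction over all 20 libraries. The fits were tested on simulated data. Tables were handled with Python 3.11.15 and pandas 2.3.3.

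The members and gene lists were chosen with earlier results of these data known, so no p adjusted over a list alone and no set test is given, and lists are described by counts and medians. The rule for named genes took Erg, Tmprss2 and Rad21, then the 14 largest differences each way among annotated genes that were called, had a mean of at least 5 FPKM in the higher clone and no overlap of domes, and the 2 largest called members each way of each list. Some genes that the rule takes are not reported here. Other genes with values were chosen after their values were seen. Alternatives were other filters, pseudocounts, scalings, moderation, all libraries in 1 fit, a replicate block, and leaving out domes. Gene positions, by symbol, and promoters are from RefSeq on GRCm38.p6.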

Additional observations from a re-analysis of the deposited data

Results flagged for a closer look

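In groups of 5 domes, a dome was singled out where its gap to the nearest other dome exceeded 0.71 of the group's range. Chance gives this in about 1 in 20 groups. In clone 1, dome 1 was low in Clca2 (10.5 FPKM, the others from 13.1 to 14.1), Rb1 (4.76, others 6.92 to 7.87), Aldh1a3 (143, others 147 to 148) and Krt6b (688, others 730.0 to 746), and high in Ankrd37 (46.3, others 31.6 to 34.5). Dome 2 of clone 1 was high in Plk1 (15.4 FPKM, others 12.3 to 13.0), dome 3 in Hspd1 (151, others 138 to 141) and Crnn (59.2, others 51.1 to 52.2). Dome 5 of clone 1 was low in Snrpn (2.67 FPKM, others 4.19 to 4.88) and high in Krt16 (1620.0, others 1520.0 to 1540.0). In clone 2, dome 5 was high in Tceal8 (50 FPKM, others 31.6 to 34.1), Flg (2.49, others 1.15 to 1.39) and Fabp5 (3730.0, others 3400.0 to 3460.0), and low in Itga3 (125, others 137 to 140.0) and Krt4 (1130.0, others 1190.0 to 1210.0). Dome 4 of clone 2 was high in Slc39a8 (0.76 FPKM, others 0.18 to 0.32), dome b in Cnfn (206, others 171 to 177) and Dcn (1.41 FPKM), and dome a was low in Egln3 (26.2, others 29.7 to 30.6).

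Of the 28 genes with the largest differences, 11 had opposite calls in the control clones. For these the difference between the T-ERG pair and the control pair was tested as an interaction. T-ERG minus control, among those given here, it was -9.40 log2 units for Wfdc18, which was also listed at 0 in control clone 1, -6.64 for Slc16a11, -4.95 for Col8a1, -5.72 for Plac8, -8.02 for Cxcl5 and -4.05 for Ociad2. It was 4.61 for BC100530, 3.73 for Stfa3, 5.78 for Xlr3a, listed at 0 in T-ERG clone 1, and 7.00 for Tceal8. All 11 passed an adjusted p of 0.05 in limma. These genes were chosen by a large T-ERG difference and an opposite control call. Both differences enter the interaction, so the choice of genes fixed this outcome and nothing is concluded from it. Among all genes tested, the 155 called higher in T-ERG and lower in control all passed too. So did the 423 called lower in T-ERG and higher in control.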

How the results depend on the processing

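Counts of called genes fell with fewer domes. With the replicate number as a block, possible for 3 domes per clone, limma called 916 genes higher and 793 lower, and the same 3 domes without a block, a setting chosen after seeing the data, gave 1276 and 1053. Same-numbered domes did not deviate together (correlations 0.053, 0.006 and 0.002), so the numbers pair nothing. Among genes named here, Cxcl3, Cldn8, Arntl, Plin2, Dsg2, Tmprss2 and Rad21 missed the threshold under the block. Counts past 1 log2 unit were 122 higher and 150 lower with a mean of at least 5 FPKM, which tests fewer genes, and 316 and 377 with a pseudocount of 0.1. Leaving out 1 dome gave 1977 to 2156 genes higher, 1506 to 1628 lower, 193 to 209 higher and 260 to 276 lower by 1 log2 unit, and 3101 to 3249 past the interaction test. Median centring turned the share of calls that were higher from 56.6% to 49.6%, and quantile normalization to 51.8%. Of 2736 pairs of a named gene and a setting, 2704 kept direction and side of the threshold, 31 missed the threshold and 1 reversed: Krt14 under quantile normalization, at -0.025 (adjusted p = 0.515 in limma), and the cause was not tested. Of the 17 lists with a median of at least 0.2 either way, none changed sign in any setting, but 13 other lists did. Depth is unknown, each clone is 1 culture, and no setting adds the spread between clones.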

Other observations

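Some genes that differed by at least 1 log2 unit lay in runs of at least 3 with gaps of at most 500000 bases, a count made after the values were seen. Such runs numbered 5 among genes higher in clone 2 and 11 among genes lower. On chromosome 8, 4 beta-defensin genes (Defb1, Defb50, Defb2 and Defb15, between 21776555 and 21932710) were all lower, and no other tested gene lay between them. On chromosome 3, Crnn, Flg and Hrnr (93144789 to 93333572), genes of late epidermal differentiation, were lower. On chromosome 13, 4 histone genes (Hist1h2ap, Hist1h4m, Hist1h4i and Hist1h2bj, 21810367 to 22043658) were higher, with values that are uncertain because histone copies share sequence. Chromosome 18 held Dsc3, Dsc1 and Dsg1a, chromosome 16 the stefins, and chromosome 11 the keratins Krt36, Krt16 and Krt17, all higher, with 3 of the 7 tested genes in the keratin span called lower. How often runs of this kind occur without clone differences was not tested.

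A few genes varied between domes of 1 culture more than most genes varied between clones. Supv3l1, a mitochondrial RNA helicase, was at 14.7, 7.84, 165, 12.9 and 9.79 FPKM in the domes of clone 1 and 12.9, 12.8, 13.2, 10.5 and 176 FPKM in clone 2. Tceanc2 was at 12.2, 12.1, 125, 14.5 and 14.5 FPKM in clone 1 and 24.8, 12.3, 90.3, 14.6 and 16.9 FPKM in clone 2. Defb14, a beta-defensin, was at 6.58, 70.0, 11.5, 0 and 38.4 FPKM in clone 1. Dome 4 of clone 2 had the lowest mt-Atp6 and mt-Nd3, transcripts of the mitochondrial genome, at 345 and 389 FPKM, where the other domes of clone 2 had 843 to 1564 and 1089 to 1273 FPKM.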
